A study of Oreochromis niloticus with 18 samples.

Results

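CYP1A2 (ENSONIT00000003676) and SULT2B1 (ENSONIT00000024671) are 2 transcripts of biotransformation enzymes among the 26763 transcripts that RNA-seq quantified in each of 18 libraries from tilapia, Oreochromis niloticus. They were picked by identifier with their liver values after hormone treatment already known, so those liver differences are given here as a description, without a test. Comparisons within the brain regions were tested. Earlier results of these data were known at the choice, so the independence of these brain tests from it is not assured. Those between tissues were tested too, but they use the liver libraries whose values were known, so they are not independent of the choice.

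Fish were juveniles aged 4 months, immersed for 12 h in water with 25 nM T2 (diiodothyronine), immersed for the same time in 25 nM T3 (triiodothyronine, which carries an additional iodine on the outer ring), or left untreated as controls. Liver, thalamus-pituitary and cerebellum were each sampled in 2 libraries per group. Each brain library pooled 4 fish, whereas the study described no pooling for liver, so that 1 liver library was taken as 1 fish and a liver group as 2 fish. Untreated fish were the only controls, and whether their water held the hormone solvent was not stated in the sources used here.

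CYP1A2 belongs to the cytochrome P450 enzymes of the endoplasmic reticulum, which oxidise lipophilic compounds in the first phase of biotransformation. In mammals it is a typical liver enzyme, and its family is switched on by the aryl hydrocarbon receptor together with its partner ARNT. SULT2B1 acts in the conjugation phase: in mammals it transfers sulfate to cholesterol and other hydroxysteroids, which makes them more soluble and alters their signalling. Sulfation and glucuronidation are also known routes by which vertebrates clear thyroid hormones, although other sulfotransferases than SULT2B1 carry most of that reaction in mammals.

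Totals of rounded effective counts, the unit of the deposited files, lay between 1568714 and 6585148 per library. Levels are given as counts per 1000000 counts (CPM) after TMM scaling over the 18 libraries. This scaling assumes that the bulk of transcripts is equal between libraries, although in the fits between tissues the median transcript stayed lower in liver. The labelled tissues carried their markers: 12 hepatocyte transcripts summed to between 36700 and 131000 CPM in liver and between 15.2 and 32.5 CPM in brain, and 5 neuronal transcripts to between 2.89 and 59.9 CPM in liver and between 1370 and 3110 CPM in brain. The liver libraries also held exocrine pancreas transcripts. These 10 markers summed to 24600 and 28600 CPM with T2, 42600 and 37800 CPM with T3, and 167000 and 63500 CPM in controls, so the tissue taken as liver contained pancreas in every group and more of its transcripts in the controls.

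CYP1A2 was a liver transcript in these fish. In liver its level was 377 and 240 CPM with T2, 324 and 512 CPM with T3, and 596 and 1320 CPM in controls. Both libraries of either hormone lay below both controls, T2 and T3 overlapped, and the controls themselves differed by 2.21-fold. The counts behind these values were 1142 and 698 with T2, 1117 and 1707 with T3, and 470 and 2965 in controls, so counting error was small beside the difference between fish.

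In the fits of 4 libraries each, the CYP1A2 log2 fold change in liver was −1.43 ± 0.42 (SE, n = 2 against 2) for T2 against control, a level 2.7-fold lower. For T3 against control it was −1.17 ± 0.40 (SE, n = 2 against 2), or 2.25-fold lower. Both comparisons used the same 2 control fish, and the size rested on the higher one: without the second control the log2 fold changes were −0.92 for T2 and −0.66 for T3. T2 against T3 gave −0.27 ± 0.33 (SE, n = 2 against 2).

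**Figure D1:**
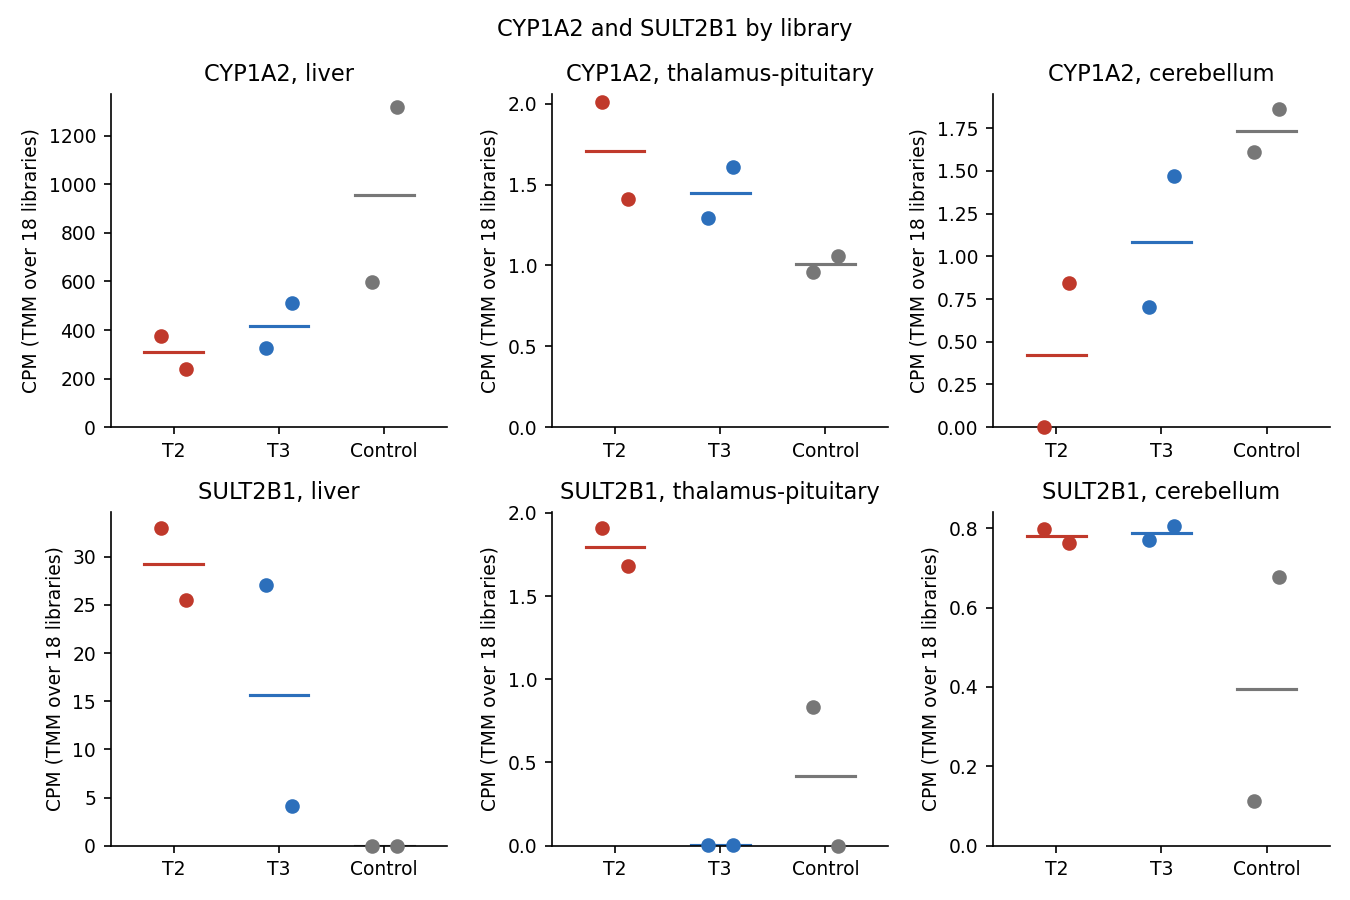
Level of CYP1A2 (upper row) and SULT2B1 (lower row) in CPM after TMM scaling over 18 libraries (linear axes from 0, scaled separately), for T2, T3 and control in each tissue. Each point is 1 library and each bar the mean of 2 libraries. CYP1A2 in liver lies between 240 and 512 CPM with hormone and at 596 and 1320 CPM in controls, and SULT2B1 in liver is near 0 in both controls.

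The difference in CYP1A2 depended on the scale on which liver libraries were compared. Scaled by the library total alone, CYP1A2 was at 253 and 139 CPM with T2, 170 and 278 CPM with T3, and 225 and 463 CPM in controls, and the groups overlapped. On that scale the log2 fold changes were −0.81 for T2 and −0.62 for T3, while the median of all transcripts tested moved up to 0.61 for T2 and 0.54 for T3. Relative to that median CYP1A2 was lower with either hormone, which restates the TMM-scaled difference and is no separate evidence for it.

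Hepatocyte markers were lower with hormone too, and their order within a group matched that of CYP1A2 only with T3. Their sums were equal in the controls, where CYP1A2 was at 596 and 1320 CPM. With T2 the library with the higher marker sum had the lower CYP1A2 level. With T3 the library with the higher marker sum had the higher CYP1A2 level, at 512 against 324 CPM. The 12 hepatocyte transcripts summed to 36700 and 43100 CPM with T2, 55800 and 59900 CPM with T3, and 131000 CPM in both controls, and 11 of the 11 that could be tested were called lower with T2 and 8 of 11 with T3, where 8.85% and 5.05% of all transcripts tested were called lower. Their symbols, like those of all markers here, come from a table of transcripts that the study had called changed in these libraries, so these calls are not independent evidence of a direction. Per 1000 counts of these markers, CYP1A2 had 10.3 and 5.57 counts with T2, 5.81 and 8.56 with T3, and 4.54 and 10 in controls. The 3 groups overlapped on this scale. All 11 tested markers had negative log2 fold changes with either hormone, so dividing by them lessens any lower CYP1A2 value. The overlap is therefore no evidence that CYP1A2 was unchanged. In whole-tissue samples fewer hepatocytes and less of a transcript per hepatocyte cannot be told apart, and the part of either in the CYP1A2 values was not tested. The 5 red blood cell markers were lower with hormone too, at 6020 and 6850 CPM with T2, 5690 and 7610 CPM with T3, and 13500 and 22600 CPM in controls. The 4 intestine markers summed to 1700 and 2540 CPM with T2, 2860 and 2400 CPM with T3, and 7160 and 5740 CPM in controls. None of these sums overlapped between either hormone and the controls, and their part in the CYP1A2 values was not tested.

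**Figure D2:**
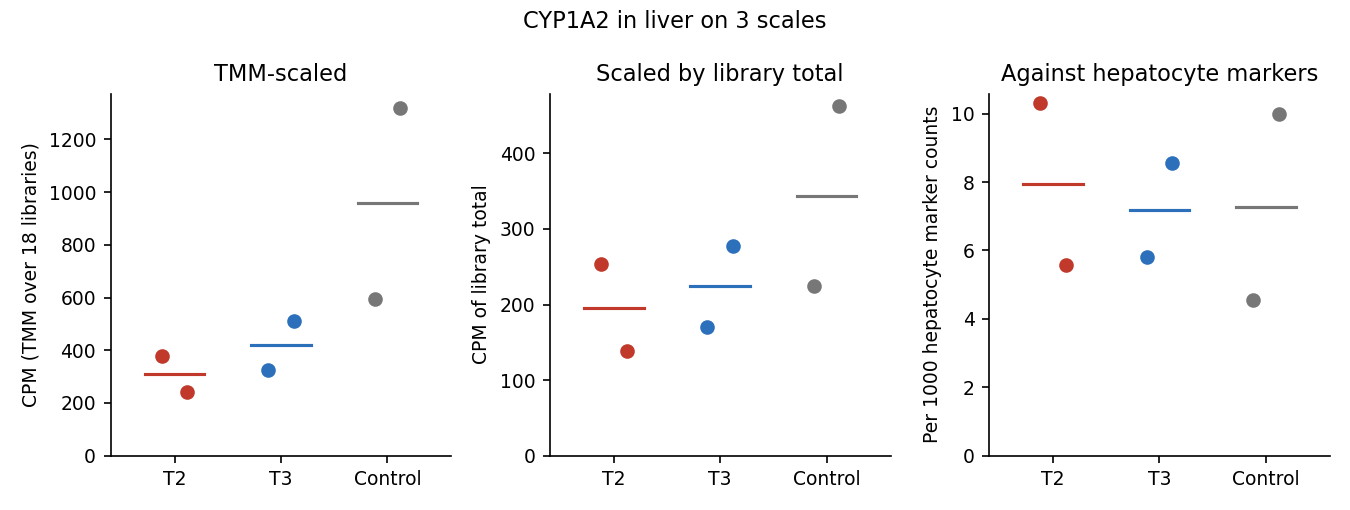
CYP1A2 in the 6 liver libraries on 3 scales (linear axes from 0): CPM after TMM scaling, CPM of the library total, and counts per 1000 summed counts of 12 hepatocyte markers. Points are libraries and bars are means of 2. Hormone and control libraries are apart on the left scale and overlap on the others. The hepatocyte markers of the right scale were themselves lower with hormone.

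CYP1A2 was far lower in both brain regions than in liver. Averaged over treatments, liver exceeded cerebellum by 8.78 ± 0.35 on the log2 scale (SE, 6 libraries against 6), a 440-fold difference (adjusted p = 1.33e-09, edgeR's quasi-likelihood test with Benjamini-Hochberg adjustment). Liver exceeded thalamus-pituitary by 8.36 ± 0.30 (SE), or 329-fold (adjusted p = 1.19e-09, edgeR). All 6 liver libraries lay above all 12 brain libraries. Of all transcripts tested, 77.5% were called in either direction between liver and cerebellum and 79.7% between liver and thalamus-pituitary, so a call was common among all transcripts. Both fits used the liver libraries known at the choice, and within cerebellum CYP1A2 did not reach the count minimum. Their p-values are therefore not independent of the choice. The difference from cerebellum was 10.2 log2 units without the second T2 cerebellum library, which leaves the library at 0 counts alone in its group, and between 8.61 and 8.98 without any other library. The median transcript was lower in liver on this scale, by a log2 change of −0.70 against cerebellum and −0.83 against thalamus-pituitary, and by library totals CYP1A2 still stood 7.33 and 6.94 log2 units above these tissues.

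Traces of CYP1A2 were counted in brain. In thalamus-pituitary it was at 2.01 and 1.41 CPM with T2 (13 and 10 counts), 1.29 and 1.61 CPM with T3 (11 and 7 counts), and 0.959 and 1.06 CPM in controls (8 and 8 counts). Here both hormones lay above the controls, on 7 to 13 counts per library. The differences did not pass the test: the log2 fold change was 0.69 ± 0.65 (SE) for T2 against control (adjusted p = 0.854, edgeR) and 0.45 ± 0.76 (SE) for T3 against control (adjusted p = 0.901, edgeR).

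In cerebellum CYP1A2 had 0 and 6 counts with T2, 4 and 10 with T3, and 13 and 6 in controls, which corresponds to 0 and 0.843 CPM with T2, 0.702 and 1.47 CPM with T3, and 1.61 and 1.86 CPM in controls. The library at 0 was the shallowest of the 18, where 3 counts stood for 1.35 CPM, and the transcript did not reach the count minimum for a test in cerebellum. Levels of CYP1A2 in the 2 brain regions could not be separated either (thalamus-pituitary against cerebellum, log2 fold change 0.46 ± 0.54 (SE), adjusted p = 0.525, edgeR, where 47.4% of all transcripts were called), and this value was 2.04 (adjusted p = 0.0898, edgeR) without the second T2 cerebellum library. Ordered by mean, control liver stood first at 958 ± 512 CPM (SD, n = 2), followed by T3 liver at 418 ± 133 CPM (SD, n = 2) and T2 liver at 308 ± 96.9 CPM (SD, n = 2), the last 2 overlapping. The 6 brain groups followed between 0.422 and 1.74 CPM, and each overlapped the next in the order, save that T2 cerebellum, which cannot be placed because its 0 counts allowed up to 1.35 CPM, was not compared with its neighbour.

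SULT2B1 in liver was counted with either hormone and not in controls. Its level was 33.0 and 25.5 CPM with T2 (100 and 74 counts), 27.1 and 4.12 CPM with T3 (93 and 14 counts), and 0 counts in both controls, where the deposited effective counts were 0.000802 and 1e-06. As counted, all 4 hormone libraries lay above both controls, but the second T3 fish had 6.58-fold less than the first. A 0 in the controls allowed up to 3 counts, that is 3.81 CPM in the shallower control and 1.33 CPM in the deeper one. The upper 95% Clopper-Pearson limit of the shallower control was 4.68 CPM, above the 4.12 CPM of the second T3 fish, so these libraries were not separated.

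Against that floor of 3 counts per library, averaged over both controls, the mean of SULT2B1 in T2 liver was at least 11.4-fold higher than in control liver. In T3 liver it was at least 6.08-fold higher. The floor covers counting error only, not any error in assigning counts to this identifier. Taken from the lower hormone library alone, against the same averaged floor, the values were 9.93-fold for T2 and 1.6-fold for T3. They are not bounds against the shallower control, whose floor was higher than that average. T2 against T3 gave a log2 fold change of 1.07 ± 0.76 (SE, n = 2 against 2). That value rested on the low T3 fish, since it was 0.26 without it and 2.94 without the other T3 fish.

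The next identifier in the annotation, ENSONIT00000024672, was looked at after these values were seen, because its counts ran against those of SULT2B1. The name table gives it no symbol, and whether both identifiers share sequence or reads cannot be read from the files. In liver it had 43 and 119 counts with T2, 102 and 202 with T3, and 17 and 126 in controls. It was thus counted in the control fish in which SULT2B1 rounded to 0 counts, which does not show that SULT2B1 was absent there. SULT2B1 made up 69.9% (95% Clopper-Pearson interval 61.7 to 77.3) and 38.3% (31.5 to 45.6) of the counts of the pair with T2. The share was 47.7% (40.5 to 54.9) and 6.48% (3.59 to 10.6) with T3, and 0% (upper limits 19.5 and 2.89) in controls. These intervals cover counting error only, and the shares of fish of 1 group lay outside each other's intervals under both hormones.

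Summed, the pair stood at 47.2 and 66.3 CPM with T2, 56.7 and 64.8 CPM with T3, and 21.8 and 56.0 CPM in control liver. T2 overlapped the controls on this TMM-scaled sum, and the upper control lay just under the lower T3 library. Scaled by the library total alone, the sum was 31.7 and 38.4 CPM with T2, 29.7 and 35.2 CPM with T3, and 8.21 and 19.7 CPM in controls. On that scale neither hormone overlapped the controls, while the median log2 fold change of all transcripts was also raised, to 0.61 for T2 and 0.54 for T3. The log2 fold change of the sum was 0.69 ± 0.41 (SE, 1.61-fold) for T2 against control and 0.61 ± 0.38 (SE, 1.53-fold) for T3 against control, against bounds of 11.4-fold and 6.08-fold for SULT2B1 counted alone. The sum thus differed far less between hormone and control liver than SULT2B1 alone, and the cause of the division of counts between the identifiers was not tested.

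**Figure D3:**
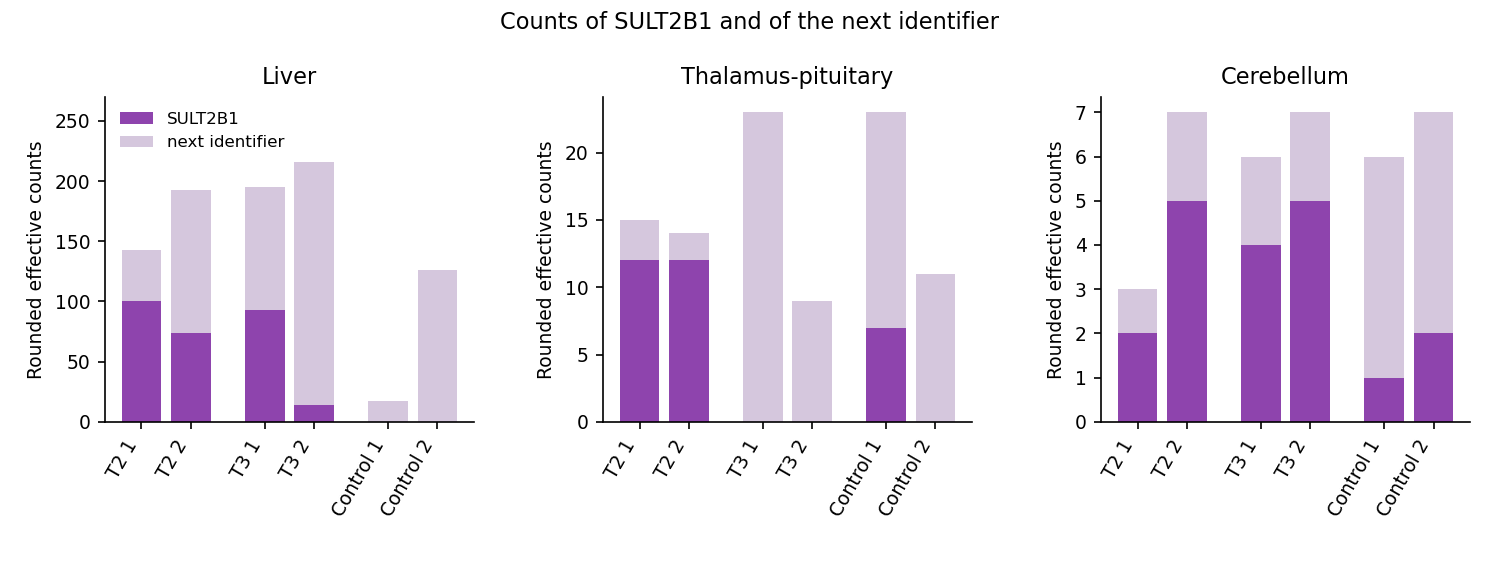
Rounded effective counts of SULT2B1 (dark) stacked on those of the next identifier, ENSONIT00000024672 (light), in each library of liver, thalamus-pituitary and cerebellum (linear axes from 0, scaled separately). Control livers hold 17 and 126 counts, all on the next identifier, and T2 thalamus-pituitary holds 12 counts of SULT2B1 in each library where T3 holds none.

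In thalamus-pituitary the counts were also divided between the identifiers, at much lower counts, but T3 differed from its liver pattern. T3 livers held SULT2B1 counts, and T3 thalamus-pituitary did not. SULT2B1 was at 1.91 and 1.68 CPM with T2 (12 and 12 counts), had 0 counts in both T3 libraries, and was at 0.832 and 0 CPM in controls (7 and 0 counts). The next identifier had 3 and 2 counts with T2, 23 and 9 with T3, and 16 and 11 in controls. SULT2B1 thus took 80% and 85.7% of the pair with T2, 0% in both T3 libraries, and 30.4% and 0% in controls, and T2 lay apart from the other groups.

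For T2 against T3 in thalamus-pituitary, mean SULT2B1 was at least 3.44-fold higher against a floor of 3 counts per library, but the comparison failed the correction over all transcripts (unadjusted p = 0.00661, adjusted p = 0.718, edgeR's quasi-likelihood test). For T2 against control the log2 fold change was 1.95 ± 1.19 (SE, adjusted p = 0.824, edgeR). It was 6.63 without the first control, which leaves a control at 0 counts, and 1.01 without the second. The next identifier had log2 fold changes of −2.65 ± 0.78 (SE, adjusted p = 0.756, edgeR) against T3 and −2.20 ± 0.78 (SE, adjusted p = 0.807, edgeR) against control. The sum showed neither difference, with −0.18 ± 0.54 (SE, adjusted p = 0.984, edgeR) for T2 against T3 and −0.04 ± 0.57 (SE, adjusted p = 0.993, edgeR) for T2 against control.

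No comparison of hormones in thalamus-pituitary called CYP1A2 or SULT2B1. The share of all transcripts called there was 0% for T2 against control, 0.00588% for T3 against control and 0.0541% for T2 against T3, with 1034, 1503 and 975 transcripts at an unadjusted p under 0.05 by edgeR's quasi-likelihood test. DESeq2 called 22, 60 and 50 transcripts in these comparisons and edgeR's exact test without the low-count filter 47, 95 and 78. The only unadjusted p under 0.05 for either member was that of SULT2B1 between T2 and T3. T2 and T3 were given at the same dose and time, and for CYP1A2 in thalamus-pituitary the 95% interval of their log2 difference lay between −1.37 and 1.85.

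In cerebellum SULT2B1 had 2 and 5 counts with T2, 4 and 5 with T3, and 1 and 2 in controls, too few for a test. At 0.797 and 0.763 CPM with T2 and 0.771 and 0.806 CPM with T3, the hormone libraries lay above the controls at 0.113 and 0.676 CPM by a few counts. Its share of the pair was 66.7% and 71.4% with either hormone, and 16.7% and 28.6% in controls. On pairs of 3 to 7 counts these shares had wide intervals, such as 29 to 96.3% for 5 counts of 7.

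SULT2B1 was highest in hormone-treated liver. Its mean was 29.2 ± 5.3 CPM in T2 liver (SD, n = 2) and 15.6 ± 16.2 CPM in T3 liver (SD, n = 2), which overlapped, then 1.80 ± 0.163 CPM in T2 thalamus-pituitary (SD, n = 2). The other brain groups had means between 0.00495 and 0.788 CPM. Control liver cannot be placed among them, since its 0 counts allowed up to 3.81 and 1.33 CPM. Because control livers held no count, the fit of liver against either brain region gave no usable error for SULT2B1. The sum with the next identifier was 44-fold higher in liver than in cerebellum (adjusted p = 6.68e-09, edgeR) and 20.9-fold higher than in thalamus-pituitary (adjusted p = 2.4e-08, edgeR). Both p-values rest on a sum chosen after seeing the data and on the liver libraries known at the choice. Within cerebellum the sum did not reach the count minimum for a test, so it entered the comparison with cerebellum through its liver counts.

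Other enzymes of biotransformation moved in liver around these 2 members. A list of 37 further transcripts covered oxidation and reduction, P450s of endogenous substrates, conjugation, transport, and ARNT with heme oxygenase. It was drawn from the same table of transcripts called changed, so it is not independent evidence of a direction or of how common changes were. Of 36 that could be tested, 4 rose and 21 fell with T2, where 21% of all transcripts tested were called in either direction, 12.2% higher and 8.85% lower. With T3, 2 rose and 14 fell, where 13.6% of all transcripts were called, 8.55% higher and 5.05% lower. T2 against T3 called none of 35 by edgeR's quasi-likelihood test, with 8 at an unadjusted p under 0.05, and 0.0874% of all transcripts. The median log2 fold change of the list was −1.75 for T2 and −1.45 for T3, against 0.01 and −0.02 for all transcripts tested. By library totals 5 rose and 10 fell with T2, and 4 rose and 8 fell with T3.

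Among P450s of endogenous substrates, 4 of 5 fell with T2 and 3 of 5 with T3. CYP26A1, which degrades retinoic acid, was at 3.66 and 1.69 CPM with T2, 6.68 and 12.5 CPM with T3, and 117 and 58.0 CPM in controls, and fell by 4.86 ± 0.64 (SE) with T2 on the log2 scale (adjusted p = 0.0129, edgeR). CYP24A1, which inactivates vitamin D, had 11.3 and 12.5 CPM with T2, 40.6 and 61.1 CPM with T3, and 499 and 196 CPM in controls. CYP7A1, the rate-limiting enzyme of bile acid synthesis, had 68.3 and 73.6 CPM with T2, 47.6 and 101 CPM with T3, and 162 and 362 CPM in controls. All 3 fell with T2, while with T3 CYP26A1 and CYP24A1 passed the test and CYP7A1 did not (adjusted p = 0.0582, edgeR).

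Phase I enzymes were mixed, with 3 of 17 higher and 8 lower with T2, and 1 higher and 4 lower with T3. Xanthine dehydrogenase (XDH), an enzyme of purine breakdown, had 40.4 and 42.7 CPM with T2, 81.0 and 101 CPM with T3, and 285 and 683 CPM in controls, and fell with both hormones. CBR4, a carbonyl reductase, rose with both, at 18.7 and 23.9 CPM with T2, 20.7 and 20.2 CPM with T3, and 4.55 and 5.40 CPM in controls. In neither did the libraries of a hormone overlap the controls, but the share of all transcripts that separate in this way was not counted.

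Conjugation, the class of SULT2B1, held both directions. A UGT1A10 transcript (ENSONIT00000005589), for a glucuronosyltransferase, had 625 and 629 CPM with T2, 734 and 820 CPM with T3, and 209 and 197 CPM in controls, and rose by 1.77 ± 0.28 (SE, adjusted p = 0.0176, edgeR) with T2 and by 1.91 ± 0.27 (SE, adjusted p = 0.018, edgeR) with T3 on the log2 scale. MGST2, a microsomal glutathione transferase, fell with both hormones, at 33.1 and 21.5 CPM with T2, 52.5 and 45.4 CPM with T3, and 112 and 106 CPM in controls. In neither did a hormone overlap the controls, and here too the share of all transcripts that separate was not counted. GSTA1, another glutathione transferase, did not pass the test with T2 (adjusted p = 0.234, edgeR) or T3 (adjusted p = 0.226, edgeR). Nor did the other UGT1A10 transcript (ENSONIT00000005590) pass with either hormone. It had 808 and 918 CPM with T2, 691 and 775 CPM with T3, and 67.1 and 510 CPM in controls, which lay far apart.

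Of the transporters, 5 of 6 fell with T2 and 4 of 6 with T3, among them ABCC2, which exports conjugates into bile, at 12.4 and 19.2 CPM with T2, 14.0 and 17.9 CPM with T3, and 37.0 and 74.3 CPM in controls. ARNT, the partner through which the aryl hydrocarbon receptor acts on the CYP1 family, had 24.1 and 19.8 CPM with T2, 31.6 and 34.0 CPM with T3, and 64.2 and 63.3 CPM in controls. It fell by 1.39 ± 0.30 (SE, adjusted p = 0.0307, edgeR) with T2, and its log2 fold change of −0.98 ± 0.26 (SE, adjusted p = 0.0586, edgeR) with T3 did not pass. HMOX1, which opens the heme ring that P450s carry, had 6.11 and 10.8 CPM with T2, 7.63 and 11.5 CPM with T3, and 121 and 941 CPM in controls, and fell with both hormones. ARNT differed from CYP1A2 across tissues, being lower in liver than in cerebellum by a log2 change of −1.39 ± 0.11 (SE, adjusted p = 4.14e-07, edgeR). The median of all transcripts was itself −0.70 in that comparison. Against thalamus-pituitary ARNT was at −0.82, beside a median of −0.83, so there it was no lower in liver than the median transcript.

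**Figure D4:**
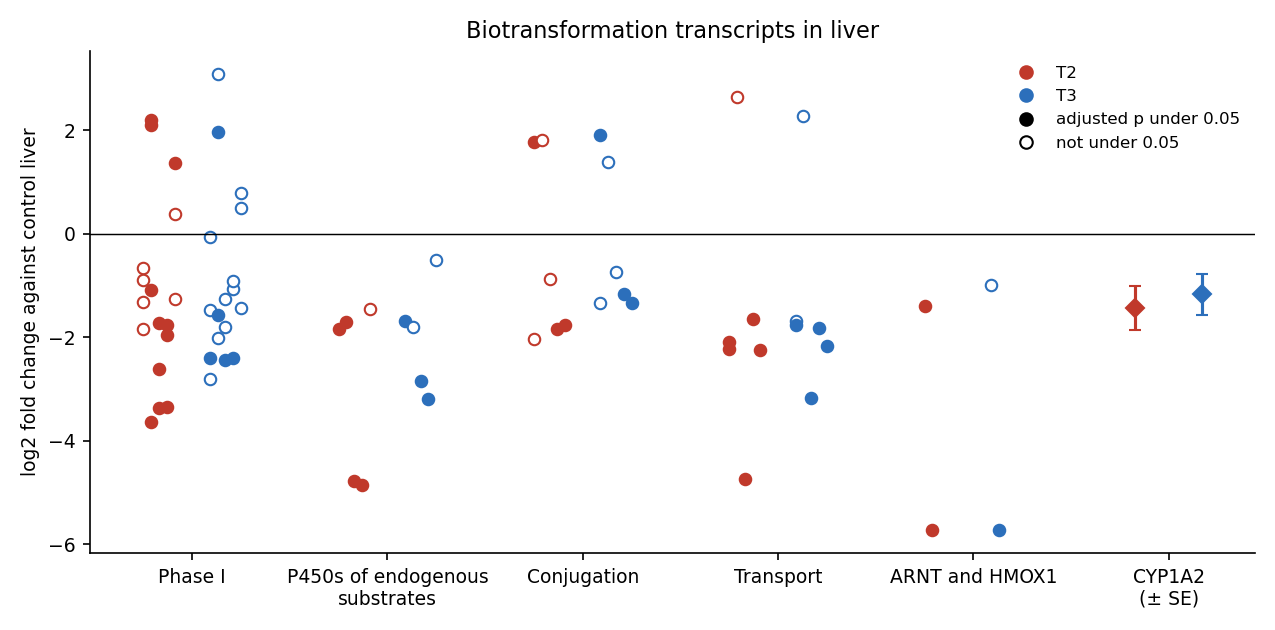
Log2 fold change against control liver (vertical axis) of 36 biotransformation transcripts in 5 classes for T2 and T3, from fits of 4 libraries each. Filled points had an adjusted p under 0.05 and open points did not, and the diamonds give CYP1A2 ± SE without a test. Most points lie below 0, and CYP1A2 at −1.43 and −1.17 lies within their range.

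None of these 37 transcripts was called in a hormone comparison of either brain region by edgeR's quasi-likelihood test, which in cerebellum called 0%, 0% and 0.0128% of all transcripts for T2 against control, T3 against control and T2 against T3. Per comparison between 19 and 23 of them were tested and between 1 and 5 had an unadjusted p under 0.05. Between tissues 32 of 36 were higher in liver than in cerebellum and 1, ARNT, was lower, and the counts against thalamus-pituitary were the same. Since only between 19 and 23 reached the count minimum within a brain region, some entered the tissue fits only through liver. The list was also drawn from transcripts called changed, so these tissue counts are not independent evidence of liver enrichment. For all transcripts, 29.3% were higher and 48.2% lower in liver than in cerebellum, and 28.6% were higher and 51.1% lower than in thalamus-pituitary. CYP1A2 at 8.78 log2 units above cerebellum lay above the list's median of 5.88.

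Over the 18 libraries the named transcripts with the pattern most like CYP1A2 were CYP8B1 (r = 0.9938), G6PC (r = 0.9922), TDO2 (r = 0.9918), HAO1 (r = 0.9912) and AQP7 (r = 0.9906), by Pearson correlation of log2 CPM. All 18 points share the split between liver and brain, and 2067 of 18822 transcripts exceeded 0.9. CYP8B1, a sterol hydroxylase of bile acid synthesis, had 1040 and 921 CPM with T2, 1630 and 2630 CPM with T3, and 1660 and 4540 CPM in control liver, and at most 1.16 CPM in any brain library. G6PC, which releases glucose from its phosphate, had 853 and 666 CPM with T2, 910 and 1460 CPM with T3, and 2210 and 4350 CPM in control liver. Within the 6 liver libraries the nearest were PDK2 (r = 0.9891), KIT (r = 0.9818), SCUBE2 (r = 0.9815), G6PC (r = 0.9804) and UPP2 (r = 0.9777), and G6PC was the transcript on both lists.

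Correlations with SULT2B1 over the 18 libraries were lower, and the 5 libraries in which it had 0 counts are among the points. Over 18 libraries OGDH (r = 0.9248), RAN (r = 0.9215), MAGOHB (r = 0.92), ACTR3 (r = 0.9186) and USP10 (r = 0.9186) came first, and 36 of 18822 transcripts exceeded 0.9. OGDH, a subunit of a citric acid cycle enzyme, had 247 and 259 CPM with T2, 215 and 180 CPM with T3, and 124 and 129 CPM in control liver, but also between 115 and 159 CPM in thalamus-pituitary, where SULT2B1 did not exceed 1.91 CPM. Within the liver PPM1G (r = 0.9926), THUMPD3 (r = 0.9902), MRPS30 (r = 0.9868), CH507-9B2.5 (r = 0.9835) and KPNA1 (r = 0.9824) were nearest, and 1019 of 11875 transcripts exceeded 0.9. PPM1G, a protein phosphatase, had 67.8 and 59.0 CPM with T2, 67.3 and 45.5 CPM with T3, and 30.1 and 31.1 CPM in control liver. The second T3 fish was the lowest with hormone here as for SULT2B1, which follows from picking PPM1G by its correlation over these libraries.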

How the data were processed

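RNA-seq libraries of liver, thalamus-pituitary and cerebellum were read with 2 libraries per group. The authors aligned reads with Bowtie 1.1.2 against Ensembl coding sequences (Orenil1.0) and deposited estimated counts, as effective counts from eXpress, for 26763 transcripts per library, without scaling between libraries. These were rounded to whole numbers. The authors' edgeR comparison tables, which hold their fold changes and p-values, were not used.

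Fits used R 4.3.3 and edgeR 4.0.16: filterByExpr (smallest count 10, smallest sum 15), TMM scaling, the quasi-likelihood test and Benjamini-Hochberg adjustment over all transcripts tested, with an adjusted p under 0.05 as the threshold. Hormone comparisons used the 4 libraries concerned and tissue comparisons 12. The study describes a single set of fish per treatment for all tissues, so libraries of different tissues may share fish. The tissue fits treated them as independent. Log2 CPM used a prior count of 2. Each SE of a log2 fold change was its absolute value divided by the square root of the quasi-likelihood F statistic. The script was tested on simulated counts. DESeq2 1.42.0 and the settings in the closing section were alternatives.

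The members, the lists and the rule for naming genes (both members, the lists, and for each member the 5 named transcripts most correlated with it over 18 and over 6 liver libraries) were chosen with earlier results of these data known. Symbols came from 1646 pairs in a supplementary table; none of 42644 genes in the RefSeq table carries an Ensembl identifier. Libraries of 1 group were not stated to come from separate tanks, so p-values measure the spread between these samples.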

Additional observations from a re-analysis of the deposited data

Results flagged for a closer look

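CYP1A2 differences from control had opposite signs in different tissues. As the difference of mean log2 CPM (prior count 2), T2 against control was −1.56 in liver and −1.57 in cerebellum but 0.52 in thalamus-pituitary, and T3 against control was −1.12 in liver and −0.49 in cerebellum but 0.33 in thalamus-pituitary. A comparison was listed here only where both hormone libraries lay on 1 side of both controls, so that separation is part of the rule and not a result. The share of all transcripts that separate in this way was not counted. The difference between tissues was not tested. In thalamus-pituitary neither hormone passed the test against control, and in cerebellum the counts were too low for one, with a T2 library at 0 where 3 counts stood for 1.35 CPM. Both brain regions had at most 13 counts per library.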

How the results depend on the processing

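With 2 libraries per group and few counts outside liver, the limits are set by 1 or 2 libraries. For CYP1A2 against control in liver, the alternatives without a left-out library kept the direction, and leaving out each library in turn gave log2 fold changes between −1.80 and −0.92 for T2 and between −1.55 and −0.66 for T3. T2 against T3 for CYP1A2 turned sign in liver (−0.67 to 0.0755) and in thalamus-pituitary (−0.0556 to 0.49) when 1 library was left out. Thalamus-pituitary against cerebellum for CYP1A2 was −0.64 with the 4 control libraries only (adjusted p = 0.572, edgeR), and 0.24 to 2.04 with a library left out. Liver against cerebellum was 8.61 to 10.2, and SULT2B1 for T2 against control in thalamus-pituitary 1.01 to 6.63.

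The fitted SULT2B1 log2 fold change in liver depends on the prior count, since controls are at 0. For T2 it was 9.12, with 7.96 by DESeq2, 9.38 by library total alone, 9.37 with all 6 libraries, 9 with the replicate block and 8.78 to 9.41 with a library left out. For T3 it was 8.28, with 6.85 by DESeq2. T2 against T3 gave 0.26 to 2.94 with a library left out. Summed with the next identifier, SULT2B1 moved to 0.69 for T2 and 0.61 for T3, and turned sign for T2 against control (−0.0367) and T2 against T3 (−0.18) in thalamus-pituitary and for thalamus-pituitary against cerebellum (0.95, adjusted p = 0.083, edgeR, against −1.18). This sum was chosen after seeing the data.

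Of the listed transcripts, those lower with T2 in liver numbered 10 by library total alone and 8 to 17 with a library left out, and those higher 0 to 4. With T3, 8 were lower and 4 higher by library total alone, 24 lower and 4 higher without the low-count filter, 4 higher by edgeR's exact test, and 1 to 20 lower and 0 to 3 higher with a library left out. Those lower in liver numbered 5 against cerebellum and 6 against thalamus-pituitary by library total alone, 0 against cerebellum with the 4 control libraries only, and 1 to 2 against thalamus-pituitary with a library left out.

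Transcripts called in liver ranged from 1947 to 3309 for T2 (2290) and from 1503 to 2392 for T3 (1572) over the other planned settings, and reached to 619 and 208 with a library left out. With the replicate number as a block they were 1525 and 837. Deviations of same-numbered libraries correlated between −0.195 and 0.154, the labels give no shared batch, and the block changed no call of either member in the comparisons tested. For T2 against control in cerebellum, where that correlation was lowest, a block that crosses the numbers called 0 transcripts.

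Of the 5 transcripts most like each member over the 18 libraries, named or not, 0 stayed among the 5 nearest with Spearman's rho and 2 with a prior count of 0.5. Within liver, 5 stayed for CYP1A2 and 1 for SULT2B1 with that prior count. Spearman's rho over 6 libraries had too many ties to rank the 5 nearest. For CYP1A2 the ties were at its maximum, and for SULT2B1 they were at 0.9856, below 3 transcripts at the maximum.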
